A study of Rattus norvegicus with 16 samples.

Results

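Interferon response genes were followed across sorted leukocytes of 2 rat strains immunised with an autoantigen that causes autoimmune kidney disease. The set holds 39 genes chosen by name: regulators of the interferon pathway, sensors of viral RNA, antiviral effectors, guanylate-binding proteins, the ISG15 system and feedback inhibitors. The choice was made with earlier results of these data known. The arrays carried 39 probes for 34 of the 39 genes, and Ddx58, Gbp4, Herc6, Ifi44l and Xaf1 had no probe matched by accession. Of the 34 genes, 33 passed the signal filter, out of 18481 genes tested among 26785 measured. Ifit1, an RNA-binding antiviral protein, did not pass because its probe was well above background on 1 of 16 arrays.

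Interferons are secreted proteins that bind receptors on the cell surface and act through the JAK kinases and the STAT transcription factors. Type I interferons mainly activate a complex with STAT2 and IRF9 that binds interferon-stimulated response elements (ISRE), whereas interferon-gamma, made largely by NK cells and T cells, acts mainly through gamma-activated sites (GAS). The genes switched on detect viral RNA, cut or block viral replication, and, through SOCS1 and USP18, dampen the signal itself.

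RNA came from female rats aged 15 weeks of the strains Wista Kyoto (the spelling of the labels; WKY) and Lewis (LEW). All animals had been immunised with an autoantigen that causes glomerulonephritis, and tissue was taken on days 30 to 35, so no group was left unimmunised. Leukocytes from blood or from digested glomeruli, the filtering units of the kidney, were sorted with magnetic beads in 3 steps. There were 8 groups of 2 arrays. CD8+ cells positive for the MHC class II molecule RT1B (RT1B+) and CD8+ cells low in it (RT1Blow) came from LEW blood, WKY blood and WKY glomeruli. The other two groups were pan T cells of WKY blood and cells from WKY glomeruli labelled as infiltrating macrophages (MØ). Nothing in the labels ties the 2 arrays of a group to separate animals; the p-values therefore reflect variation from array to array, possibly technical. Of the 58717 spots for genes, 57.3% to 68.6% per array gave signal well above background, and 0 were saturated.

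Several arrays bear on how the groups can be read. The 8 arrays of blood CD8+ cells lay on the first slide and the other 8 arrays on the second, so tissue and slide cannot be told apart, nor can blood CD8+ cells against pan T cells and slide. Within each slide the RT1B gate went with the column. On the first slide LEW arrays filled one row and WKY arrays the other, and on the second the glomerular CD8+ arrays filled one row and the pan T and MØ arrays the other. Gate and column, strain and row, and glomerular CD8+ cells against pan T or MØ cells and row therefore cannot be told apart, and MØ and pan T arrays lay in different columns. The second glomerular array labelled RT1Blow went against its label: RT1-Bb, the gene of the RT1B beta chain, stood at 3.16 on it, above the glomerular RT1B+ arrays at 2.45 and 2.54. The MØ arrays carry PANT+ in their array names, which goes against the label. On the MØ arrays the mean level of 12 glomerular cell genes was -0.15 and 0.38, against -5.89 to -3.96 on the other 14 arrays, so kidney RNA was present in them. A level is the log2 signal minus the 75th percentile of its array. In cells sorted in bulk, fewer cells that express a gene and less RNA per cell cannot be told apart. A gene was called when its Benjamini-Hochberg adjusted p in limma was under 0.05, its change was at least 2-fold, and all arrays of 1 or more of the groups compared gave signal well above background.

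The promoters of the set held many response elements. RefSeq promoters of build GRCr8, running from 250 bases before to 50 bases after the start of the gene, were found for 31 of the 39 genes. The ISRE core (GAAA, any 2 bases, GAAA), searched on both strands, was in 19 of the 31 (61.3%) and in 3.92% of all 33469 promoters of that length. The GAS core TTCNNNGAA, which reads the same on both strands, was in 9 of the 31 (29.0%) and in 8.87% of all promoters. Matches that overlap were counted, but a promoter counted once. The sequences shown are those of genes that the comparisons turn on, 5′ to 3′ on the strand of the gene, with the core in capitals.
Irf7, chr1:205800063-205800112, minus strand: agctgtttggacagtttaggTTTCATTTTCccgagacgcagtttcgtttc
Oas1a, chr12:41330405-41330454, plus strand: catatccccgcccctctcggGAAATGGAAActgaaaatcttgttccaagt
Oas1b, chr12:41395882-41395931, minus strand: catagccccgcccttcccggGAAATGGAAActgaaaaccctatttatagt
Gbp2, chr2:234005676-234005725, plus strand: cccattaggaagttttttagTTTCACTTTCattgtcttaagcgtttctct
Gbp5, chr2:233910923-233910972, plus strand: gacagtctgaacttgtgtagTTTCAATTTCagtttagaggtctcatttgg
Ifit3, chr1:241527262-241527311, plus strand: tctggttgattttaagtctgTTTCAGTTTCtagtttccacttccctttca
Socs1, chr10:5389447-5389496, plus strand: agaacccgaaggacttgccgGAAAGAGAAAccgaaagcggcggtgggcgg
Rsad2, chr6:48788238-48788287, minus strand: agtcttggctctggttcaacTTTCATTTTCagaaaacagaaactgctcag
Irf1, chr10:38417773-38417821, plus strand: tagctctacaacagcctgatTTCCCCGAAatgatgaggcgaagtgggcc
The first 8 lines show an ISRE core and the line of Irf1 a GAS core. Those of Irf7, Gbp2, Gbp5, Ifit3 and Rsad2 lie on the opposite strand and read TTTC, 2 bases, TTTC. In Oas1a, Oas1b and Socs1 a second ISRE core overlaps the one shown. Oas1a and Oas1b, related copies near each other on chromosome 12, carry nearly the same stretch, and whether their probes also bind the other copy was not tested. Cmpk2, Herc6, Ifi35, Mx1, Oasl, Parp9, Socs3, Stat2 and Trim25 had neither core in this window.

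**Figure D1:**
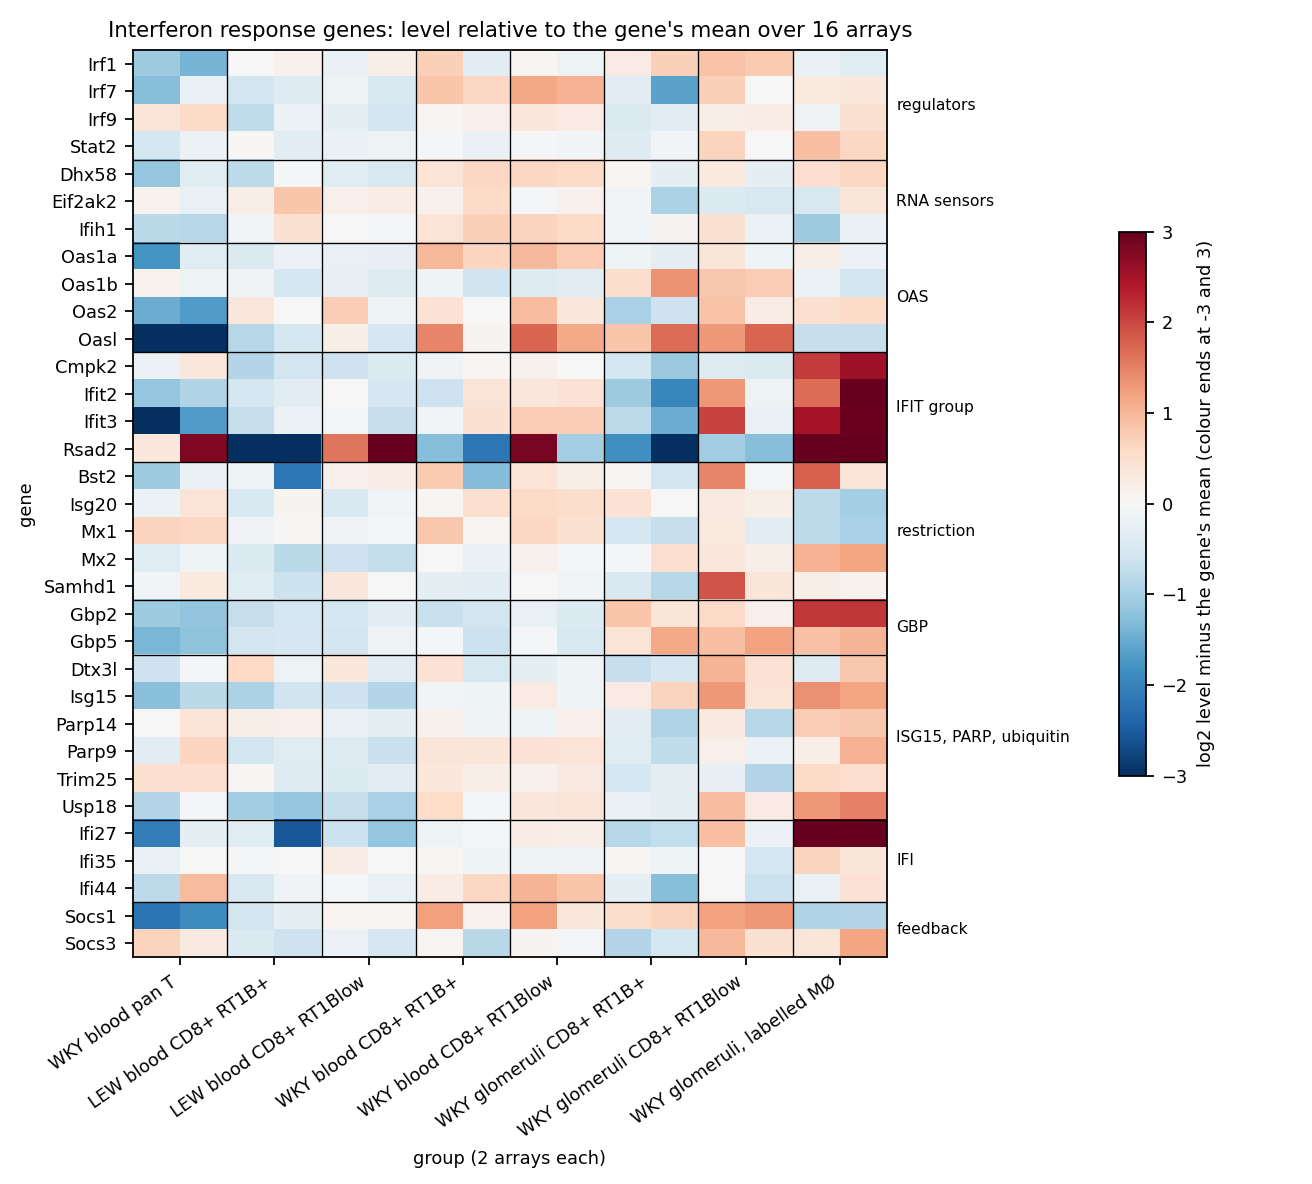
Level of each of the 33 genes on each of the 16 arrays as a colour, relative to the mean of the gene over all arrays (log2), with genes grouped by role and 2 arrays per group. The MØ arrays stand out for Cmpk2, Ifit2, Ifit3, Gbp2 and Ifi27, the pan T arrays are low for Oasl, Oas2, Ifit3 and Socs1, and Rsad2 varies between arrays of a group.

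Ordered over the 8 groups, the MØ group had the highest mean for 16 of the 33 genes, and for 9 of these both of its arrays lay above all other arrays. Usp18 and Parp14 were among the 9, but second probes of both overlapped. These read -0.62 and -0.15 (Usp18) and -1.60 and -0.90 (Parp14) on the MØ arrays. The first glomerular RT1Blow array had -0.25 and -0.62. WKY blood RT1Blow cells had the highest mean for 7 genes, 2 of them clear of all other arrays (Irf7 and Isg20), and glomerular RT1Blow cells for 6, with Irf1 and Samhd1 clear. A second Irf1 probe was not clear, at 2.45 and 2.14 in glomerular RT1Blow cells and 2.62 on a WKY blood RT1B+ array. Pan T cells had the lowest mean for 12 genes, of which 7 were clear of every other array. Glomerular RT1B+ cells had the lowest mean for 10 genes and were clear for 0 of them. LEW blood RT1B+ cells had the lowest mean for 5 genes, with Usp18 clear, and the MØ group for 2, Mx1 and Isg20, both clear. In all other cases, arrays of the highest or lowest group overlapped those of at least 1 other group, not always its neighbour in the order. Rsad2, or viperin, which makes an antiviral nucleotide, had the widest spread, with 6.71 log2 units between its highest and lowest group means. Ifi35, an interferon-induced protein, had the narrowest at 0.77.

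Blood CD8+ cells of WKY rats carried more RNA of several interferon response genes than those of LEW rats. The comparison took both RT1B gates together, 4 arrays against 4. The 4 genes called were all higher in WKY: Usp18, Irf7, Oas1a and Oasl. Across all genes 1.19% were called higher and 2.59% lower in WKY, beside 4 of 33 higher and 0 lower in the set. The set was chosen with earlier results of these data known, so its shares beside those of all genes are a description and no test. The median difference was 0.51 over the 33 genes and -0.00 over all genes, and 27 of the 33 were above 0, beside 49.7% of all genes. Arrays of the strains did not overlap for 14 of the 33 genes, each higher in WKY, against 8.04% of all genes higher and 7.63% lower. For 51 tested genes of a list of other interferon-induced genes, the median was 0.02, with 27 above 0 and 24 below. Among these 51, arrays did not overlap for 7 higher and 7 lower in WKY, so that list showed no such shift.

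Among the regulators, Irf7, the factor that drives type I interferon production, stood at 1.80 and 1.95 in LEW RT1B+ cells and at 2.21 and 1.86 in LEW RT1Blow cells. It reached 3.17 and 2.96 in WKY RT1B+ cells and 3.50 and 3.37 in WKY RT1Blow cells. All 4 WKY arrays thus lay above all 4 LEW arrays, and the difference was 1.30 ± 0.30 (SE), or 2.46-fold, with an adjusted p of 0.0320. Irf9, the DNA-binding subunit of the type I complex, differed by 0.62 ± 0.18 without overlap but was not called (adjusted p = 0.0724).

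Among the sensors, Dhx58, or LGP2, which tunes RNA sensing by the RIG-I-like receptors, differed by 0.97 ± 0.23 (adjusted p = 0.0316), just under 2-fold at 1.96-fold. Its LEW arrays ran from -1.89 to -1.16 and its WKY arrays from -0.72 to -0.50, without overlap. Of the 4 OAS genes (Oas1a, Oas1b, Oas2 and Oasl), 2 were called.

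Oas1a stood at 0.15 and 0.39 in LEW RT1B+ cells and at 0.34 and 0.32 in LEW RT1Blow cells. In WKY it was 1.56 and 1.21 in RT1B+ cells and 1.53 and 1.33 in RT1Blow cells. The gap between the strains was wider than the spread within either, and the difference was 1.1 ± 0.27, or 2.15-fold, with an adjusted p of 0.0386. Oasl, an OAS-like protein, differed by 1.53 ± 0.33 (adjusted p = 0.0222). Its strains overlapped, since a WKY RT1B+ array at -2.15 lay below a LEW RT1Blow array at -2.07, and the other WKY arrays ran from -1.10 to -0.50.

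In the ISG15 system, Usp18, the protease that removes ISG15 and blocks the type I receptor, gave the smallest p. It stood at -2.19 and -2.31 in LEW RT1B+ cells and at -1.84 and -2.12 in LEW RT1Blow cells, against -0.59 and -1.19 in WKY RT1B+ cells and -0.81 and -0.76 in WKY RT1Blow cells. The strains did not overlap, and the difference was 1.28 ± 0.23, or 2.43-fold, with an adjusted p of 0.00899. A second Usp18 probe gave 1.56 ± 0.22 (adjusted p = 0.0023). Isg15 itself, the ubiquitin-like modifier, differed by 0.74 ± 0.22 and was not called (adjusted p = 0.0804). The guanylate-binding genes Gbp2 and Gbp5, targets of interferon-gamma, were not called, with a median difference of 0.10, and the same held for Stat2.

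The strain calls were fragile. Leaving out 1 array at a time gave 1 to 3 calls. Usp18 was called in all 8 such fits, Oasl in 4, and Irf7 and Oas1a in 0. The counts of 3 included a gene not among the 4, Dhx58 without the second LEW RT1B+ array and Socs1 without the second WKY RT1Blow or the second WKY RT1B+ array. The count was 1 without the second LEW RT1Blow array or without the first array of the LEW RT1B+, WKY RT1Blow or WKY RT1B+ group, and 2 without the first LEW RT1Blow array. With the authors' deposited series matrix the count was 2 (Irf7 and Oasl), so Usp18 and Oas1a were not called there. The median was then 0.37, while the median over all genes moved to -0.32. Within a single gate, alternatives added after seeing the data, 0 genes of the set were called, beside 0.638% of all genes in RT1B+ cells and 0.914% in RT1Blow cells. Of the 33, 10 had an unadjusted p under 0.05 in RT1B+ cells and 13 in RT1Blow cells, beside 10.1% and 11.8% of all genes, and the medians were 0.46 and 0.61.

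The strain difference did not differ detectably between the gates: 0 of the 33 genes were called in the interaction, beside 0% of all genes. Of the 33, 0 had an unadjusted p under 0.05, beside 1.31% of all genes. The smallest p-values there were those of Rsad2 (3.02 ± 1.58), Isg20 (-0.36 ± 0.40) and Parp14 (-0.42 ± 0.47), each at an adjusted p of 1. Markers of other cells also moved with strain. Of 14 macrophage genes 2 were called lower in WKY, with list means of -1.95 to 0.55 in LEW and -3.03 to -0.82 in WKY, and of 13 T cell genes 4 were called lower, with means of -1.77 to -1.10 in LEW and -2.68 to -1.36 in WKY. Of 9 NK cell genes 1 was called higher and 2 lower in WKY. Among 9 neutrophil genes 2 were called lower, and among 11 B cell genes 1. Of 8 plasmacytoid dendritic cell genes, 0 were called, with means of -2.95 to -2.20 in LEW and -3.03 to -2.58 in WKY. Their part in the result was not tested.

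**Figure D2:**
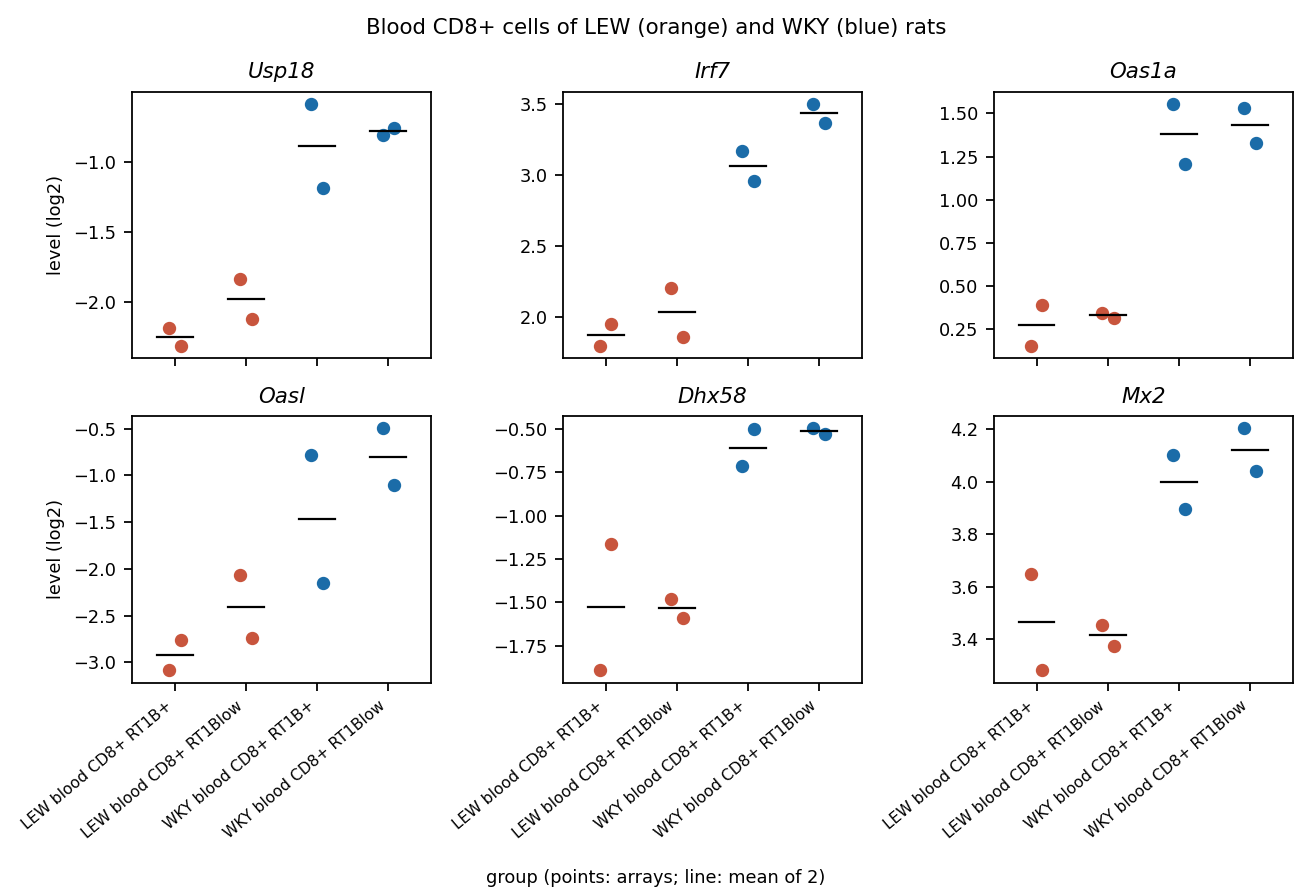
Level (log2, with the 75th percentile of each array at 0) of 6 genes on the 8 arrays of blood CD8+ cells, LEW in orange and WKY in blue, with a line at the mean of 2 arrays. WKY arrays lie above LEW arrays for Usp18, Irf7, Oas1a, Dhx58 and Mx2, and for Oasl 1 WKY array reaches the LEW range; axes differ between genes and do not start at 0.

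Blood CD8+ cells that were RT1B+ showed no called difference from RT1Blow cells in either strain. In WKY blood 0 of the 33 genes were called, beside 0.0325% of all genes called higher and 0.0379% lower in RT1B+ cells. There 1 of the 33 had an unadjusted p under 0.05, beside 5.23% of all genes. In LEW blood 0 were called, with 0.0379% of all genes called higher and 0.0216% lower, and 1 had an unadjusted p under 0.05, beside 3.63% of all genes. That gene was Rsad2 in both strains, at -2.64 ± 1.12 (adjusted p = 0.896) in WKY and -5.65 ± 1.12 (adjusted p = 0.135) in LEW. The next smallest p-values in WKY were those of Oasl (-0.67 ± 0.46) and Gbp2 (-0.29 ± 0.22), and in LEW those of Samhd1 (-0.66 ± 0.39) and Bst2 (-1.35 ± 0.80), each at an adjusted p of 1. In WKY blood arrays did not overlap for 0 genes higher and 10 lower in RT1B+ cells, beside 12.4% and 18.4% of all genes, and in LEW blood for 1 and 7, beside 12.5% and 21.2%.

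Rsad2 varied most between arrays, so its levels are given in full. In LEW blood it stood at -2.98 and -3.29 in RT1B+ cells and at 1.62 and 3.41 in RT1Blow cells, without overlap. In WKY blood it was -1.26 and -2.14 in RT1B+ cells, but 2.87 on 1 RT1Blow array and -1.0 on the other. Pan T cells were at 0.33 and 2.82. The glomerular arrays gave -1.81 and -3.17 in RT1B+ cells, -1.02 and -1.25 in RT1Blow cells, and 3.33 and 3.82 on the MØ arrays.

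The mean level of 9 red cell and platelet genes moved beside it. In LEW blood that mean was -2.55 and -3.09 in RT1B+ cells and 2.25 and 2.84 in RT1Blow cells. In WKY blood it was -1.56 and -2.95 in RT1B+ cells and 2.73 and -0.16 in RT1Blow cells, with the high value on the array that was high for Rsad2. Pan T arrays had 1.62 and 2.79.

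The MØ arrays differed from this, with 0.15 and -0.28 for these genes beside high levels of Rsad2. The part of red cell or platelet RNA in the Rsad2 values was not tested. Cmpk2, the mitochondrial nucleotide kinase encoded next to Rsad2 on chromosome 6, showed no such swing in LEW blood, at -0.41 and -0.08 in RT1B+ cells and -0.16 and 0.05 in RT1Blow cells.

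**Figure D3:**
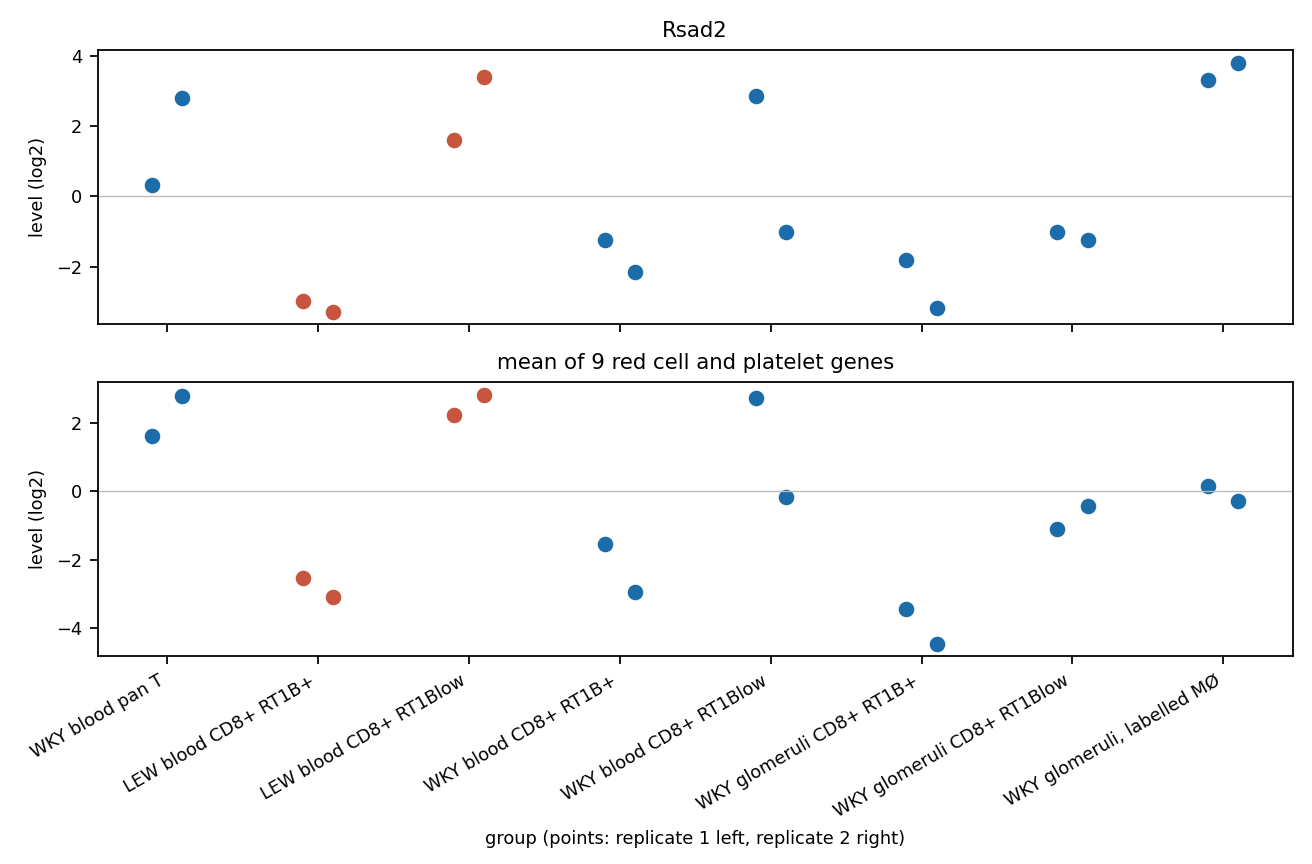
Level of Rsad2 (upper panel) and the mean level of 9 red cell and platelet genes (lower panel) on each of the 16 arrays (log2, with the 75th percentile of each array at 0), replicate 1 left and replicate 2 right, LEW in orange and WKY in blue. Both are low in LEW RT1B+ cells and high in LEW RT1Blow cells, and the MØ arrays pair Rsad2 levels of 3.33 and 3.82 with list means of 0.15 and -0.28.

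In glomeruli no gene of the set was called between RT1B+ and RT1Blow cells. The count was 0 of 33 against 0.162% of all genes called higher and 0.476% lower. The median difference was -0.46, against -0.15 over all genes, and 29 of the 33 differences were below 0, beside 60% of all genes. For 9 of the 33 the unadjusted p was under 0.05, beside 20.5% of all genes. Arrays did not overlap for 18 of the 33, all lower in RT1B+ cells, beside 18.6% of all genes higher and 33.2% lower.

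The genes with the smallest p-values were effectors and a feedback gene. Samhd1, which depletes the nucleotides that viruses need, stood at -1.32 and -1.72 in RT1B+ cells and at 1.03 and -0.49 in RT1Blow cells, a difference of -1.79 ± 0.39 (adjusted p = 0.0595). Socs3, a feedback inhibitor of cytokine receptors, was -1.44 and -1.07 in RT1B+ cells and 0.41 and -0.10 in RT1Blow cells, a difference of -1.41 ± 0.35 (adjusted p = 0.0793). Oas2 differed by -1.32 ± 0.34 (adjusted p = 0.0828).

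The values in RT1Blow cells rest unevenly on the 2 arrays. The first RT1Blow array was higher than the second for 29 of the 33 genes, by a median of 0.56, where the median size of the gap between these arrays over all genes was 0.37. The first array was also the dimmest of the 16, with a 75th percentile of signal of 471, against 858 on the next dimmest and 1065 on the second RT1Blow array. The lowest level well above background was -6.18 on the first RT1Blow array and -7.48 on the second. The part of signal strength in these gaps was not tested. The second array is the one whose RT1-Bb level went against its label. Without the second array, the differences were -2.55 for Samhd1, -3.17 for Ifit3, -2.81 for Ifit2 and -1.64 for Oas2, all lower in RT1B+ cells. Ifit1 was well above background on the remaining RT1Blow array alone, so that it was tested only because it was high there, and no size is given for it. Without the second array the median was -0.75 over 34 genes, Ifit1 included. Without the first array it was -0.30, with 10 of 33 differences above 0. With 1 array left in that group, its spread is assumed to equal that of the other groups.

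Marker genes also moved with the glomerular gate. Of 11 B cell genes 6 were called lower in RT1B+ cells, with list means of -5.14 and -5.11 there and -2.85 and -3.03 in RT1Blow cells. Of 11 kidney tubule genes 1 was called lower, with means of -6.00 and -5.59 against -4.09 and -4.51. Of 9 red cell and platelet genes 3 were called lower, with means of -3.45 and -4.47 against -1.10 and -0.44. Of 8 plasmacytoid dendritic cell genes 2 were called lower, with means of -3.38 and -3.34 against -1.75 and -1.84. Their part in the gate difference was not tested. The gate difference itself did not differ detectably between glomeruli and WKY blood: 0 of 33 genes were called in that interaction, beside 0.103% of all genes called lower and 0% higher. For 2 of the 33 the unadjusted p was under 0.05 (Samhd1, -1.50 ± 0.55, and Dtx3l, -1.52 ± 0.64), beside 7.06% of all genes. Ifit2 followed at -1.57 ± 0.78.

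Between glomerular and blood CD8+ cells of WKY rats the share of the set that was called was close to that of all genes, so the counts are no result about the set. In RT1B+ cells 3 genes were called higher in glomeruli (Oas1b, Gbp2, Gbp5) and 2 lower (Irf7, Mx1), against 8.05% of all genes called higher and 5.15% lower. The median was -0.55 over the set and 0.10 over all genes. Arrays did not overlap for 4 genes that were higher and 19 that were lower in glomeruli, beside 31.9% and 24.3% of all genes. In RT1Blow cells 2 genes were called higher (Oas1b and Gbp5) and 0 lower, against 6.29% and 2.96% of all genes, with a median of 0.09 over the set and 0.17 over all genes. There 11 genes higher and 13 lower did not overlap, beside 40.1% and 24% of all genes. The next smallest p was that of Trim25, a ubiquitin ligase, at -0.75 ± 0.24 (adjusted p = 0.0618).

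Gbp5, which assembles on vacuoles that hold pathogens and promotes inflammasome activity, stood at 3.17 and 2.59 in blood RT1B+ cells and at 3.63 and 4.36 in glomerular ones. In RT1Blow cells it was 3.16 and 2.75 in blood and 4.12 and 4.43 in glomeruli. Neither gate showed overlap, and the differences were 1.11 ± 0.29 (adjusted p = 0.0251) and 1.32 ± 0.29 (adjusted p = 0.0196). A second Gbp5 probe gave 1.25 ± 0.30 and 1.41 ± 0.30.

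Gbp2, a related GTPase, stood at 3.24 and 3.37 in blood and at 4.74 and 4.27 in glomerular RT1B+ cells, a difference of 1.20 ± 0.22 (adjusted p = 0.00490). In RT1Blow cells the difference was 0.68 ± 0.22, also without overlap, and was not called (adjusted p = 0.0673). Oas1b, the OAS copy linked in mice to resistance against flaviviruses, was 4.77 and 4.29 in blood and 5.43 and 6.25 in glomerular RT1B+ cells, a difference of 1.31 ± 0.29 (adjusted p = 0.0114). In RT1Blow cells it was 4.51 and 4.57 in blood and 5.71 and 5.67 in glomeruli, a difference of 1.15 ± 0.29 (adjusted p = 0.0298).

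The 2 genes called lower were a regulator and an effector. Irf7 stood at 3.17 and 2.96 in blood RT1B+ cells and at 2.01 and 0.74 in glomerular ones, so the groups did not overlap but the glomerular arrays were far apart. The difference was -1.69 ± 0.43 (adjusted p = 0.0203). Mx1, a GTPase that traps viral nucleocapsids, was 5.03 and 4.27 in blood and 3.71 and 3.53 in glomeruli, a difference of -1.03 ± 0.27 (adjusted p = 0.0251).

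These counts shifted with the processing. Fitted on the arrays of the 2 groups alone, 0 genes were called in RT1B+ cells. After quantile normalization the split there was 0 higher and 3 lower, and with the series matrix 1 higher and 2 lower. In RT1Blow cells the median turned below 0 with normexp correction (-0.04), quantile normalization (-0.10) and the series matrix (-0.01), and quantile normalization left 0 calls. It moved most with single glomerular arrays, to -0.39 without the first, with 12 of 33 above 0, and to 0.28 without the second. The 0.28 is over 34 genes, Ifit1 included. Without the second blood array the median was -0.11. Leaving out single arrays gave 1 to 4 calls in RT1B+ cells and 0 to 2 in RT1Blow cells. In RT1B+ cells the count was 3 without the first and 2 without the second blood array, and 1 (Gbp2) without the second glomerular array. In RT1Blow cells it was 1 (Gbp5) without the first blood array, 0 without the second, and 1 (Trim25, lower) without the first glomerular array. Without the second glomerular RT1Blow array, whose RT1-Bb level went against its label, Samhd1 (1.92, adjusted p = 0.0107) and Isg15 (1.25, adjusted p = 0.0466) were called there and Gbp5 and Oas1b were not. Of 12 glomerular cell genes 4 were called higher in glomeruli in each gate, with list means of -4.48 to -3.96 on the glomerular CD8+ arrays and -5.83 to -5.04 on the WKY blood CD8+ arrays. Of 11 B cell genes 7 were called lower in glomeruli in RT1B+ cells, with means of -5.14 and -5.11 against -2.22 and -1.59. In RT1Blow cells 6 of 13 T cell genes were called higher, with means of -1.66 and -1.03 against -2.68 and -2.60, and 3 of 8 plasmacytoid dendritic cell genes, with means of -1.75 and -1.84 against -2.73 and -3.03. Their part in the tissue difference was not tested.

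**Figure D4:**
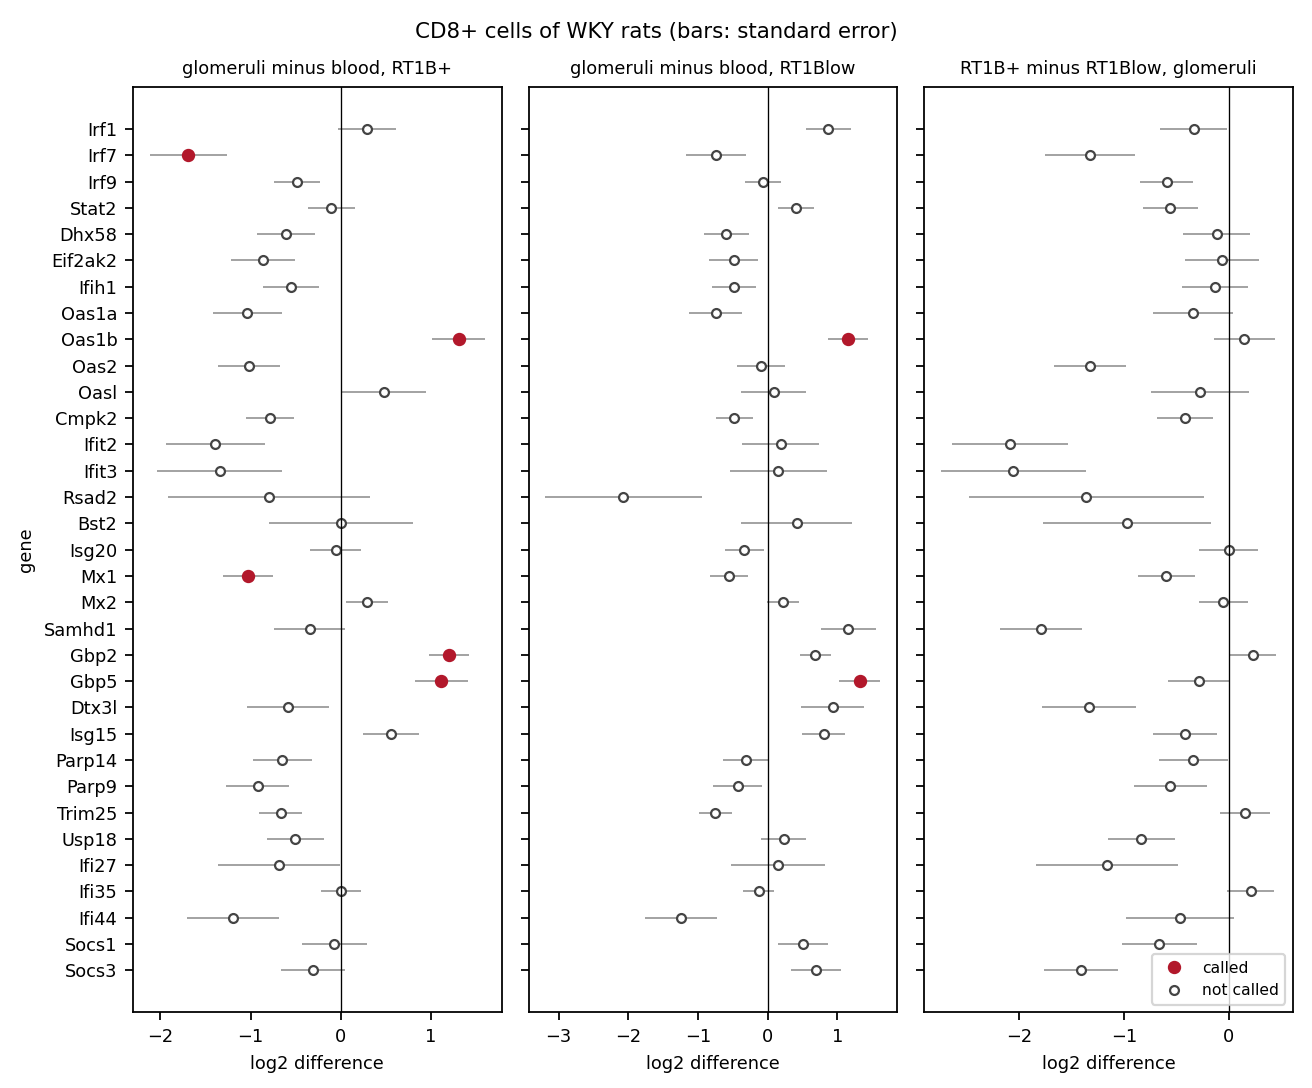
Difference in log2 level (points) with its standard error (bars) for the 33 genes in WKY CD8+ cells: glomeruli minus blood in RT1B+ cells, the same in RT1Blow cells, and RT1B+ minus RT1Blow in glomeruli, with filled red points for genes called. Gbp5 and Oas1b are filled to the right in both tissue panels, Irf7 and Mx1 are filled to the left in the first, and the gate panel has 0 filled points.

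Against pan T cells of WKY blood, genes of the set were called higher in each of the 3 other kinds of WKY cells, with the highest count in the MØ group. These comparisons share the 2 pan T arrays, so they are given side by side and are not independent. In blood CD8+ cells 10 of 33 genes were called higher and 0 lower, against 10.3% and 8.2% of all genes. In glomerular CD8+ cells 9 were higher and 1 lower, against 17.5% and 10.8%. In the MØ group 15 were higher and 2 lower, against 17.8% and 19.7%. The medians over the set were 0.59, 0.49 and 1.09, and over all genes -0.02, 0.15 and -0.22. The 2 pan T arrays differed for the set, with 25 of the 33 genes higher on the second. The median of the first minus the second was -0.37, against 0.01 over all genes. Without the first pan T array the medians were 0.24, 0.20 and 0.76, against -0.02, 0.14 and -0.24 over all genes. Without the second they were 0.74, 0.69 and 1.31, against -0.05, 0.10 and -0.25. Arrays did not overlap for 14 genes higher and 3 lower in blood CD8+ cells (24.8% and 25% of all genes), 13 and 5 in glomerular CD8+ cells (29.6% and 22.1%), and 21 and 3 in the MØ group (30.4% and 43.5%). By design these cells differ in type: the mean of 13 T cell genes was 2.57 and 2.43 on the pan T arrays and -2.68 to -0.66 on the other WKY arrays. The mean of 9 NK cell genes was -0.34 and 0.62 on the pan T arrays and 0.77 and 0.02 on the MØ arrays. It was 3.63 to 3.73 on the WKY blood CD8+ arrays and 3.05 to 3.65 on the glomerular CD8+ arrays. Of these 9 genes, 8 were called higher than in pan T cells in each kind of CD8+ cells. The part of cell type in the differences was not tested.

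Oasl was called higher in all 3 kinds of cells. On the pan T arrays it stood at -6.03 and -5.33, not well above background on either. It was -2.15 to -0.50 on the 4 arrays of WKY blood CD8+ cells, -1.41 to -0.49 on the 4 arrays of glomerular CD8+ cells, and -2.92 on both MØ arrays. It was thus at least 23.4-fold higher in blood CD8+ cells, 28.6-fold in glomerular CD8+ cells and 6.78-fold in the MØ group, with adjusted p-values of 1.28e-05, 6.46e-06 and 0.000569. A fold given as at least is the mean of the brighter group over that of the dimmer, with any dimmer signal under the lowest detected signal of its array raised to that signal.

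The other OAS genes followed in part. Oas2 was also not well above background in pan T cells, at -6.12 and -6.32, and was at least 3.66-fold higher in blood CD8+ cells, 2.49-fold in glomerular CD8+ cells and 3.92-fold in the MØ group (adjusted p = 0.000417, 0.00224 and 0.000435). Oas1a, at -1.24 and 0.19 in pan T cells, differed by 1.93 ± 0.33, 1.04 ± 0.33 and 1.09 ± 0.38, and was called in each, although 3 of the 4 fits without 1 array ended the MØ call and 3 of 6 the glomerular one. Oas1b was called in 0 of the 3.

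The feedback gene Socs1, a JAK inhibitor, was -3.87 and -3.57 in pan T cells. Blood CD8+ arrays ran from -1.58 to -0.44, glomerular CD8+ arrays from -1.15 to -0.37, and the MØ arrays were -2.57 and -2.55, so all lay above pan T cells. The differences were 2.76 ± 0.31 (adjusted p = 6.27e-05), 2.97 ± 0.31 (adjusted p = 2.78e-05) and 1.16 ± 0.36 (adjusted p = 0.0193). The last was lost in 3 of the 4 fits without 1 array.

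Among the regulators, Irf1, a main mediator of interferon-gamma responses, was 4.81 and 4.48 in pan T cells, 5.53 to 6.58 in blood CD8+ cells and 6.11 to 6.72 in glomerular CD8+ cells. It was called in both, at 1.29 ± 0.28 (adjusted p = 0.00491) and 1.87 ± 0.28 (adjusted p = 0.000289). Irf7 was called in blood CD8+ cells alone (1.67 ± 0.37, adjusted p = 0.00572), a call lost without the first pan T array. Without the second pan T array the Irf1 call in blood CD8+ cells was lost. Stat2 was called in the MØ group alone (1.12 ± 0.26, adjusted p = 0.00453), where leaving out the first pan T or the first MØ array ended that call. Of the sensors, Ifih1, or MDA5, which senses long double-stranded RNA, was called in blood CD8+ cells (1.42 ± 0.27, adjusted p = 0.00235).

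The guanylate-binding genes rose in glomerular cells of both kinds. Gbp2 was 2.84 and 2.72 in pan T cells, 4.07 to 4.74 in glomerular CD8+ cells and 6.03 and 6.04 on the MØ arrays. Its differences were 1.61 ± 0.19 (adjusted p = 6.9e-05) and 3.26 ± 0.22 (adjusted p = 1.21e-06), the second being 9.56-fold. Gbp5 differed by 2.21 ± 0.26 and 2.24 ± 0.29. In blood CD8+ cells both genes passed the p threshold but not the 2-fold minimum, at 0.67 ± 0.19 and 0.99 ± 0.26, and a second Gbp5 probe passed both at 1.35 ± 0.26.

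Of the 4 tested genes of the IFIT group, which holds RNA-binding IFIT proteins with Cmpk2 and Rsad2, 3 were called higher in the MØ group; Rsad2 was not (adjusted p = 0.162). Ifit3 was -6.16 and -4.33 in pan T cells, well above background on 1 of the 2 arrays, and -0.13 and 0.30 on the MØ arrays, a difference of 5.33 ± 0.69 (adjusted p = 9.48e-05). It was -2.70 to -1.88 in blood CD8+ cells and -4.13 to -0.61 in glomerular CD8+ cells, and was called in both (3.09 ± 0.60 and 2.49 ± 0.60), the latter not without the first pan T array. Ifit2 was -2.72 and -2.46 against 0.11 and 1.47, a difference of 3.38 ± 0.55 (adjusted p = 0.000467). Cmpk2 was 0.29 and 0.82 against 2.56 and 3.02, a difference of 2.23 ± 0.27 (adjusted p = 5.3e-05).

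Ifi27, a mitochondrial protein strongly induced by type I interferon, was 0.34 and 2.13 in pan T cells and 6.48 and 6.08 on the MØ arrays. The difference was 5.04 ± 0.68, or 33.0-fold (adjusted p = 0.000123). Isg15 was 0.96 and 1.41 against 3.59 and 3.40, a difference of 2.31 ± 0.31 (adjusted p = 0.000118). It was called in blood CD8+ cells too (1.01 ± 0.27), though not in 3 of the 6 fits without 1 array nor after quantile normalization, and in glomerular CD8+ cells (1.69 ± 0.27).

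Genes called lower than in pan T cells were few. In the MØ group Mx1 was 3.45 and 3.26 against 4.89 and 4.85, a difference of -1.51 ± 0.27 (adjusted p = 0.000884), while its relative Mx2 rose by 1.37 ± 0.23 (adjusted p = 0.000623). Isg20, an RNA exonuclease, was 0.28 and 0.05 against 0.90 and 1.45 (-1.01 ± 0.28, adjusted p = 0.0124), a call lost in 2 of the 4 fits without 1 array. In glomerular CD8+ cells Trim25 (-0.98 ± 0.21), Mx1 (-0.95 ± 0.24) and Cmpk2 (-0.70 ± 0.23) passed the p threshold but not the 2-fold minimum. The same held on the higher side for Oas1b (0.88 ± 0.25) and Ifih1 (0.90 ± 0.27). Trim25 and Mx1 were called lower there after quantile normalization and with the series matrix. Rsad2 was called lower in glomerular CD8+ cells (-3.39 ± 0.97, adjusted p = 0.0155). That call was lost without the second pan T array, the array with the higher red cell and platelet mean of 2.79.

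**Figure D5:**
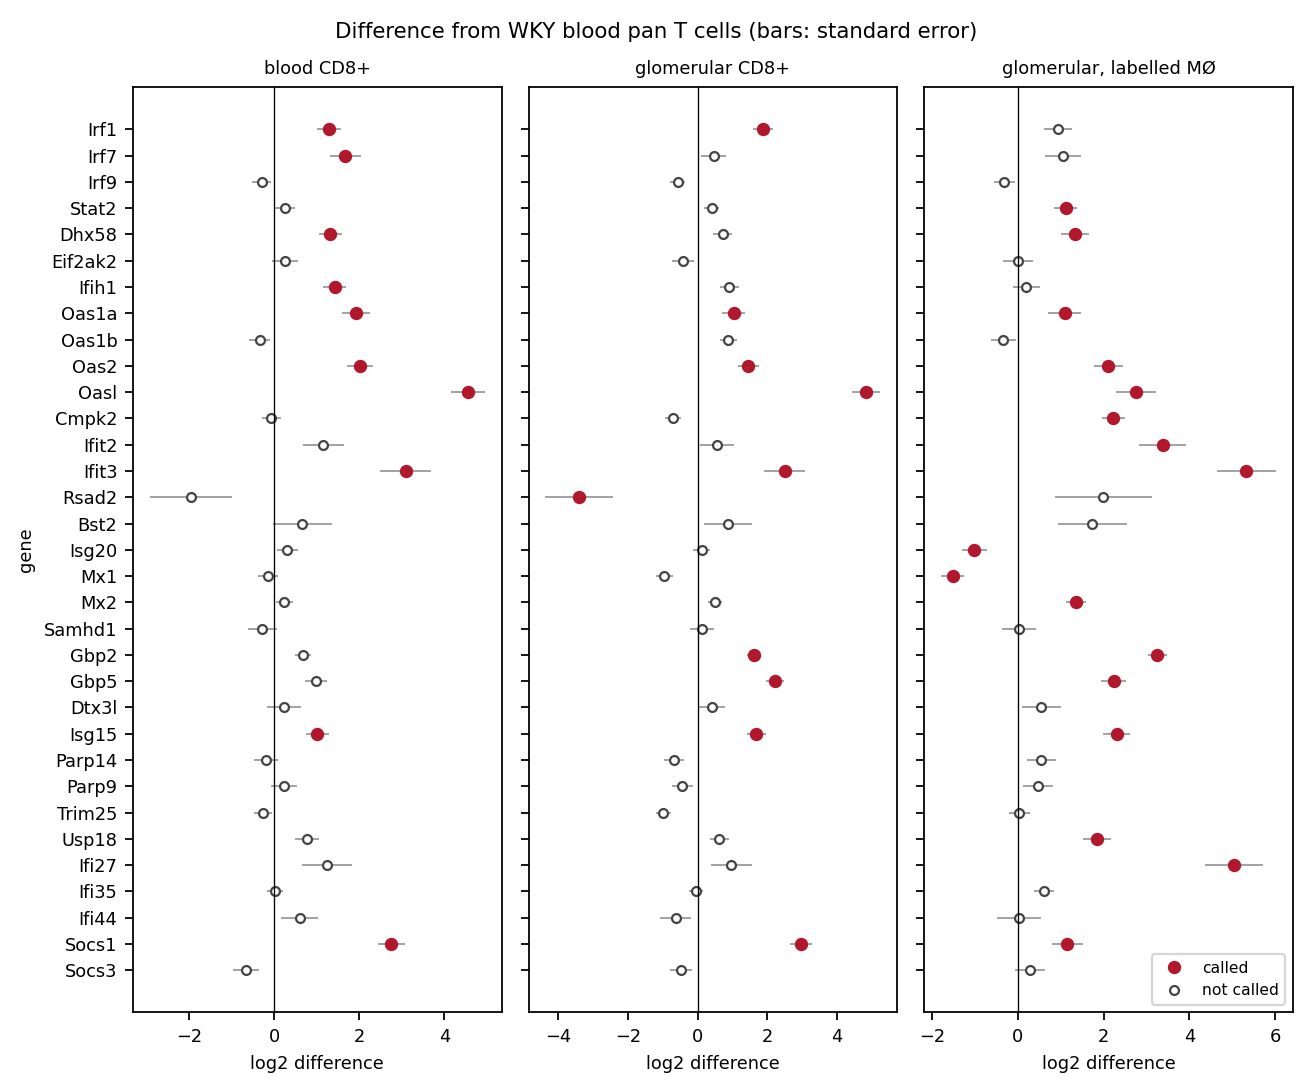
Difference in log2 level from WKY blood pan T cells (points) with its standard error (bars) for the 33 genes in blood CD8+ cells, glomerular CD8+ cells and the MØ group, with filled red points for genes called. Socs1 lies at 2.76 in the blood and 2.97 in the glomerular CD8+ panel and Ifi27 at 5.04 in the MØ panel; Oasl and Oas2 were not well above background in pan T cells, so their points carry no exact size, and Ifit3 was on 1 of 2 pan T arrays (horizontal scales differ).

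Within glomeruli, the set divided between CD8+ cells and the MØ group. Of 33 genes 4 were called higher and 9 lower in CD8+ cells, against 21.7% and 15.3% of all genes. The median was -0.66 over the set and 0.40 over all genes, and 7 genes higher and 13 lower did not overlap, beside 39.1% and 19.3% of all genes. Higher in CD8+ cells were Socs1 (1.81 ± 0.31, adjusted p = 0.000662), Oasl (2.07 ± 0.40, adjusted p = 0.00142), Oas1b (1.22 ± 0.25) and Isg20 (1.12 ± 0.25). For each the 4 CD8+ arrays lay above both MØ arrays. Oas1b was not called with quantile normalization or the series matrix, nor Isg20 with normexp correction or the series matrix. Irf1 differed by 0.93 ± 0.28, under the 2-fold minimum, while its second probe was called higher in CD8+ cells (1.12 ± 0.38, adjusted p = 0.0266).

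All 4 tested genes of the IFIT group were called lower in CD8+ cells than in the MØ group. Rsad2 differed by -5.39 ± 0.97 (adjusted p = 0.000893), Cmpk2 by -2.93 ± 0.23 (adjusted p = 3.45e-06), Ifit3 by -2.83 ± 0.60 and Ifit2 by -2.82 ± 0.48. Ifi27 differed by -4.08 ± 0.59 (adjusted p = 0.000201) and Gbp2 by -1.64 ± 0.19 (adjusted p = 4.9e-05). These 6 genes showed no overlap between the groups.

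Trim25, the ubiquitin ligase that activates RIG-I, Usp18 and Parp14 were also called lower, but less firmly. The second probes of Usp18 (-0.41 ± 0.26) and of Parp14 (-0.28 ± 0.33) were not called, and Trim25 was called in 3 of the 6 fits without 1 array. On the MØ arrays the mean of 14 macrophage genes was 0.63 and 0.60, against -1.98 to -0.85 on the glomerular CD8+ arrays. The mean of 11 kidney tubule genes was -1.01 and -1.55 against -6.00 to -4.09. The mean of 9 neutrophil genes was -1.85 and -2.44 against -5.22 to -3.51, and 5 of them were called lower in CD8+ cells. In blood the macrophage mean also reached 0.55 and 0.53, on the first LEW RT1B+ and the first LEW RT1Blow array. The share of macrophage, neutrophil and kidney RNA in the MØ levels was not tested.

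Of the interferons themselves, Ifng, the gene of interferon-gamma, was highest in CD8+ cells. It was 0.56 and -0.63 in pan T cells, 0.73 and 0.50 on the MØ arrays, 3.13 to 3.76 in LEW blood CD8+ cells, 3.13 to 3.64 in WKY blood CD8+ cells and 4.12 to 4.50 in glomerular CD8+ cells. It was called against pan T cells in blood (3.38 ± 0.32) and glomerular CD8+ cells (4.28 ± 0.32), and not between strains (-0.08 ± 0.26). Between glomeruli and blood its arrays did not overlap but it was not called, at 0.94 ± 0.37 in RT1B+ cells (adjusted p = 0.109) and 0.87 ± 0.37 in RT1Blow cells (adjusted p = 0.143).

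Ifnb1, a type I interferon, was well above background on 11 of 16 arrays. It was called higher than in pan T cells, where it was not well above background, in glomerular CD8+ cells (at least 8.09-fold, adjusted p = 0.0013) and in the MØ group (at least 5.91-fold, adjusted p = 0.00671). Its WKY arrays in blood ran from -5.49 to -4.11 and its LEW arrays from -6.66 to -5.75, and the strains were not called apart (1.19 ± 0.48, adjusted p = 0.202).

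Of the receptors, Ifnar1, a chain of the type I receptor, was called by limma in 0 of the 12 comparisons, with an unadjusted p under 0.05 in 2 of them. Ifngr1, the ligand-binding chain of the interferon-gamma receptor, was called higher in blood and glomerular CD8+ cells than in pan T cells (1.64 ± 0.26 and 1.52 ± 0.26). Ifngr2, its signalling chain, was called lower in glomerular RT1B+ than RT1Blow cells (-1.76 ± 0.33, adjusted p = 0.0407) and higher in glomerular than blood RT1Blow cells (1.60 ± 0.33, adjusted p = 0.0147).

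A list of 79 other interferon-induced genes, of which 51 were tested, included chemokines of the interferon-gamma response among its called genes in the MØ group. Cxcl11 was 2.12 and 2.50 on the MØ arrays and not well above background in pan T cells, Cxcl9 was 2.52 and 2.64 and likewise not well above background there, and Cxcl10 was 3.25 and 3.50 against -3.11 and -4.30. In all, 17 of the 51 were called higher and 11 lower than in pan T cells, beside 17.8% and 19.7% of all genes. Cxcl11 was also called higher in glomerular than blood CD8+ cells in both gates, at least 6.21-fold in RT1B+ and 13.9-fold in RT1Blow cells, since it was not well above background in WKY blood CD8+ cells. Between strains 1 of the 51 was called higher in WKY (Oas1k, 1.15 ± 0.25) and 2 lower (Cxcl10, -1.41 ± 0.30, with overlap, and Ifitm2, -1.23 ± 0.19), beside 1.19% and 2.59% of all genes.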

How the data were processed

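RNA of 8 groups of 2 arrays was measured on Agilent arrays of 1 colour read with Feature Extraction, per the file headers; the design text names another maker, and the files were followed. The deposited spot values are intensity on a linear scale, background-subtracted by the scanner software per the file headers. The deposited series matrix holds log2 values of unstated normalization, with the same median on every array, and served as an alternative. Levels are log2 of the processed signal minus the array's 75th percentile. Control spots and outlier flags were dropped, spots of a probe averaged, and a gene represented by its probe with the highest mean. Probe accessions were matched to RefSeq symbols (18355 of 30367 probes).

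All 16 arrays were fitted with limma 3.58.1 in R 4.3.3, with 1 mean per group, in 12 comparisons; p-values were adjusted over 18481 genes. The fit was tested on simulated data. Figures used Python 3.11.15 and matplotlib 3.10.9.

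The members and lists were chosen with earlier results of these data known. Full statistics were reserved for up to 6 called genes per direction and comparison without overlap, or the 3 smallest p-values where under 3 were called; up to 4 called genes per other list and the interferon receptor and ligand genes were eligible. Alternatives covered background correction (normexp, offset 50), normalization, filters, probes, variance, arrays fitted and each array left out. The number of arrays limits the precision. Some items are not reported here.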

Additional observations from a re-analysis of the deposited data

How the results depend on the processing

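No called gene of the set changed sign under any alternative run. The 4 strain calls became 2 without the filter on dim probes, 2 with the series matrix, and 0 in RT1B+ cells alone or in RT1Blow cells alone. The glomerular gate, with 0 calls, gave 2 with a trended and robust variance and 2 (Samhd1 and Socs3 in both) when every array had to be well above background. In RT1B+ cells the 5 tissue calls became 0 on the arrays of the groups compared, 3 without the filter, 3 with normexp, 3 with quantile normalization and 3 with the series matrix; in RT1Blow cells the 2 calls became 1 without the filter and 0 with quantile normalization. With the series matrix they were 2 again but different genes (Samhd1 and Dtx3l). Leaving out 1 array gave 1 to 3 calls for strain, 0 to 5 for the glomerular gate, 0 to 1 for its difference between tissues (Samhd1, without the second glomerular RT1Blow array), 1 to 4 and 0 to 2 for tissue in RT1B+ and RT1Blow cells, 7 to 12, 10 to 11 and 13 to 17 against pan T cells in blood CD8+, glomerular CD8+ and MØ cells, and 11 to 15 between glomerular CD8+ and MØ cells. The highest count for the glomerular gate included Ifit1, which entered that fit only because it was high on the 1 RT1Blow array left. For strain, 31.5% of all calls were higher in WKY, and 7.05% with the series matrix. For tissue in RT1B+ cells 61.0% were higher in glomeruli, and 78.9% with the series matrix. With 1 more letter the ISRE core (a C after it) was in 51.6% of the promoters of the set and 0.881% of all. No paired analysis was possible because the labels carry no replicate numbers. With 2 arrays a group, small differences cannot be seen, and dim probes have only bounds.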
